A study of Homo sapiens with 30 samples.

Results

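The genes described here are 10 factors and targets of the YAP/TEAD pathway, out of 26251 genes in the deposited RNA-seq table: the targets CTGF, CYR61, ANKRD1 and AXL, the target and pathway regulator AMOTL2, the regulator AJUBA, the coactivators YAP1 and WWTR1 (also called TAZ), and the DNA-binding partners TEAD1 and TEAD4. They were taken by gene symbol, and each was found. They were selected on their FPKM (a measure of RNA level) in the 4 lines, with results of these data in view, so their RNA levels are given as a description. The study used RWPE1, a human prostate epithelial cell line, transduced with retroviruses and selected with drugs. RWPE1-Vector cells carried the empty plasmids pQCXIH and pBabe-puro. RWPE1-ERG cells carried pQCXIH with ERG (UniProt isoform 1), an ETS-family transcription factor, and empty pBabe-puro. RWPE1+mAKT cells carried empty pQCXIH and pBabe-Puro-Myr-AKT, a constitutively active myristoylated AKT, and RWPE1-ERG+mAKT cells carried both ERG and Myr-AKT. Cells for ERK2 and H3K27me3 ChIP carried pQCXIH with no insert, ERG or, for H3K27me3, the phospho-mutant ERG S96E. VCaP, a prostate cancer cell line, was treated with DMSO.

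In the Hippo pathway, the kinases MST1 and MST2 (genes STK4 and STK3) activate LATS1 and LATS2, which phosphorylate YAP and TAZ and keep them out of the nucleus. YAP and TAZ do not bind DNA themselves. They enter the nucleus when LATS activity is low and activate genes through TEAD proteins, which recognise the sequence GGAATG or close variants. CTGF and CYR61, secreted matricellular proteins, and ANKRD1, a nuclear ankyrin-repeat protein, are among the targets most used as a readout. ERG recognises ETS sites, whose core is GGAA.

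The promoters of 3 members are shown first because these members have a single RefSeq start and hold the TEAD sequence GGAATG within 250 bases before it. The sequences are RefSeq's on GRCh38.p14, read 5′ to 3′ on the gene's strand and ending at the base before the start, with each GGAATG in capitals. They lie at chr6:131951373-131951622 for CTGF and chr10:90921088-90921337 for ANKRD1, both on the minus strand, and at chr11:102110197-102110446 for YAP1, on the plus strand.
CTGF promoter: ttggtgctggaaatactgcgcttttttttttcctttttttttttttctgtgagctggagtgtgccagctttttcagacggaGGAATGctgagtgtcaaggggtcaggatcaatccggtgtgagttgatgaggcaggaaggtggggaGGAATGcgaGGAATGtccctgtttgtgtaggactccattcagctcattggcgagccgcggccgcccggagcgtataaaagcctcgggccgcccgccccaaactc
ANKRD1 promoter: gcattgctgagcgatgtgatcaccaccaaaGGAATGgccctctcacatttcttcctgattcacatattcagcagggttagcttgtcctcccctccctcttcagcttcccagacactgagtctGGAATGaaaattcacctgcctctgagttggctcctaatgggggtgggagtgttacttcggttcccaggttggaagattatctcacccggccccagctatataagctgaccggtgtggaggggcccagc
YAP1 promoter: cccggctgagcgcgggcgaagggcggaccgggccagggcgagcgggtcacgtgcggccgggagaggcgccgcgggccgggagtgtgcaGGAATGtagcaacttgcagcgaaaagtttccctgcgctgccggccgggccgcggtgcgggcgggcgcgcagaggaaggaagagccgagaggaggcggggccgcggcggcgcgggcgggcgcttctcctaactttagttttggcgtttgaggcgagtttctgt
In CTGF, GGAATG began 169, 104 and 95 bases before the start. In ANKRD1 it began 220 and 128 bases before the start, and in YAP1 162 bases before it.

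Of the 10 members, 7 had promoter entries, with 11 windows in all because AMOTL2, WWTR1, AJUBA and AXL had 2 starts each. CYR61, TEAD1 and TEAD4 were not among them. GGAATG on either strand was present in 6 of the 11 windows, belonging to CTGF, ANKRD1, YAP1, AMOTL2, AJUBA and AXL, against 14% of all 35116 RefSeq windows of 300 bases (250 before the start and the bases after it). In AMOTL2, AJUBA and AXL the match lay in only the downstream of the 2 windows. WWTR1 had no match in either window. The longer GGAATGT was found for CTGF, YAP1 and AMOTL2, against 3.46% of all windows. The ETS sequence GGAAGT was found for AMOTL2 and AJUBA, against 22.8% of all windows. It shares GGAA with the TEAD sequence but cannot match at the same place and strand. The AP-1 sequence TGANTCA was found for ANKRD1, 195 bases before the start, against 7.71% of all windows, and the CArG box of serum response factor was found in 0 member windows, against 1.29%. These are matches of letters, not measured binding.

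RNA levels were deposited as FPKM (fragments scaled to transcript length and sequencing depth), 1 value per line pooled by the authors over 3 libraries. The spread between libraries is therefore unknown, no difference in RNA below has a test, and which neighbours in an order of levels differ beyond their spread cannot be told. Ratios are log2 of (FPKM + 0.1), and a gene counted as higher or lower if it differed at least 2-fold and its larger FPKM reached 1. In bulk RNA, fewer cells of a type and less RNA per cell cannot be told apart. The introduced genes followed the labels, with ERG at 0.264 FPKM in vector, 358 in ERG, 0.435 in mAKT and 328 in ERG+mAKT cells, and AKT1 at 58.7, 64.2, 156 and 281 FPKM in the same order. The epithelial label was matched by KRT8, KRT18, EPCAM and CDH1, which were at or above 33.7 FPKM in every line, and COL1A2, DCN, PECAM1, CDH5 and PTPRC were at or below 0.210 FPKM in every line. COL1A1 was between 1.78 and 2.18 FPKM.

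CYR61 was the most abundant of the 4 targets in each line. CTGF (cellular communication network factor 2, chr6:132269317-132272518 in hg19) was at 10.2 FPKM in vector, 24.1 in ERG, 6.33 in mAKT and 5.54 in ERG+mAKT cells. CYR61 (cellular communication network factor 1, chr1:86046444-86049648) was at 65.4, 255, 37.7 and 51.5 FPKM in the same order. For both genes the ERG line was highest and vector second, and both lines with mAKT were below vector. The log2 ratio of ERG over vector was 1.23 for CTGF and 1.96 for CYR61. Adding mAKT to ERG cells was accompanied by log2 ratios of -2.10 for CTGF and -2.31 for CYR61. Without ERG, the ratios of mAKT over vector were -0.69 and -0.79, in the same direction but under 2-fold.

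ANKRD1 (chr10:92671857-92681032) was near the bottom of the scale outside the ERG line, at 0.0146 FPKM in vector, 3.10 in ERG, 0.0615 in mAKT and 0.320 in ERG+mAKT cells. Only the ERG line reached 1 FPKM. The log2 ratio was 4.80 for ERG over vector and -2.93 for ERG+mAKT over ERG. Both depend on the pseudocount. With a pseudocount of 1 they were 2.01 and -1.64, and without one the first was 7.73. ERG+mAKT was also above mAKT (log2 ratio 1.38), but both were under 1 FPKM and the pair was not counted.

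AXL, a receptor tyrosine kinase for the ligand GAS6 (chr19:41725104-41767672), was at 34.5 FPKM in vector, 82.4 in ERG, 29.3 in mAKT and 17.8 in ERG+mAKT cells. It was thus highest with ERG alone and lowest with both. The log2 ratio was 1.25 for ERG over vector, -2.21 for ERG+mAKT over ERG and -0.72 for ERG+mAKT over mAKT.

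**Figure D1:**
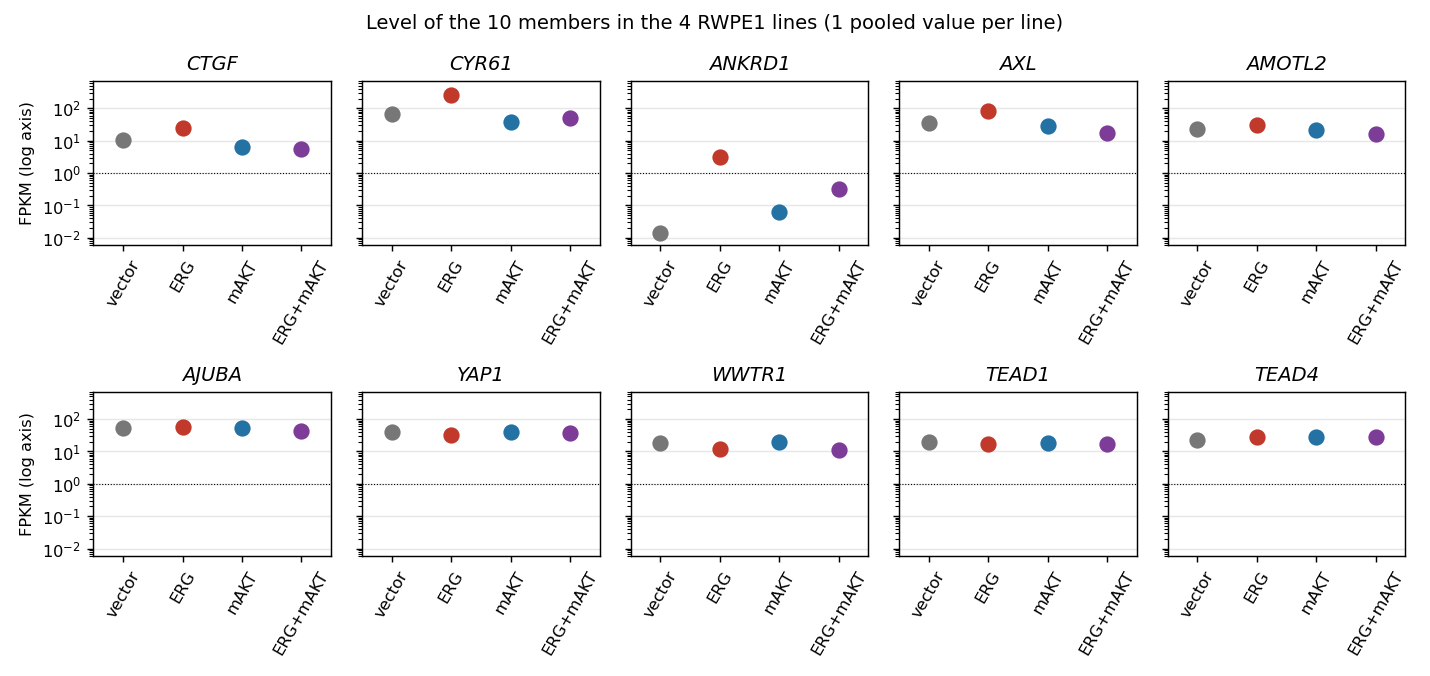
FPKM of each member (log axis) in the 4 RWPE1 lines, 1 point per line, pooled over 3 libraries and so without error bars; the dotted line marks 1 FPKM. CTGF, CYR61, ANKRD1 and AXL were highest in the ERG line, at 24.1, 255, 3.10 and 82.4 FPKM, while YAP1, WWTR1, TEAD1 and TEAD4 stayed between 11.2 and 40.1 FPKM.

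AMOTL2, a motin protein that binds YAP and holds it in the cytoplasm and is itself a YAP target (chr3:134074187-134094259), was at 22.8 FPKM in vector, 29.9 in ERG, 21.2 in mAKT and 16.7 in ERG+mAKT cells. The order of its lines was that of CTGF and AXL, with a smaller range, and no ratio between lines that differ by 1 gene reached 2-fold. Its largest was -0.84 for ERG+mAKT over ERG. AJUBA, a LIM-domain protein that binds LATS kinases (chr14:23440383-23451851), was at 54.2, 56.5, 52.2 and 43.8 FPKM. It had the same order, with log2 ratios of 0.06 for ERG over vector and -0.36 for ERG+mAKT over ERG.

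The coactivators and TEADs varied less than the targets. YAP1 (chr11:101981192-102104154) was at 39.4 FPKM in vector, 33.3 in ERG, 40.1 in mAKT and 36.5 in ERG+mAKT cells. WWTR1 (chr3:149235022-149421060) was at 18.6, 11.6, 19.2 and 11.2 FPKM, so both lines with ERG were below both lines without it. Its log2 ratio was -0.67 for ERG over vector and -0.78 for ERG+mAKT over mAKT, both under 2-fold. TEAD1 (chr11:12695969-12966284) was at 19.4, 16.7, 18.4 and 16.5 FPKM. TEAD4 (chr12:3068478-3149842) was at 22.9, 28.9, 27.6 and 27.8 FPKM, lowest in vector. The 2 coactivators and 2 TEADs thus had log2 ratios for ERG+mAKT over ERG between -0.06 and 0.13.

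For ERG over vector, 4 of the 10 members, CTGF, CYR61, ANKRD1 and AXL, were at least 2-fold higher, where 4.99% of the 12374 genes tested were, and 0 were 2-fold lower (1.81% of genes). For ERG+mAKT over ERG the same 4 were at least 2-fold lower (3.62% of 12443 genes) and 0 higher (2.96%). Since the members were chosen with these comparisons known, nothing is read from the excess. For mAKT over vector, 9 members passed the FPKM minimum and 0 were 2-fold higher (1.52% of genes) or lower (1.26%). For ERG+mAKT over mAKT, 9 passed and 0 were higher (2.96%) or lower (1.3%), and for ERG+mAKT over vector, 9 passed and 0 were higher (3.92%) or lower (1.84%). The median log2 ratio of the members that passed was 0.36 for ERG over vector and -0.60 for ERG+mAKT over ERG, beside -0.01 and -0.05 for all genes. With each line divided by its FPKM sum these medians were -0.20 and -0.23, beside -0.57 and 0.32, so the sign of the first depends on the scale.

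**Figure D2:**
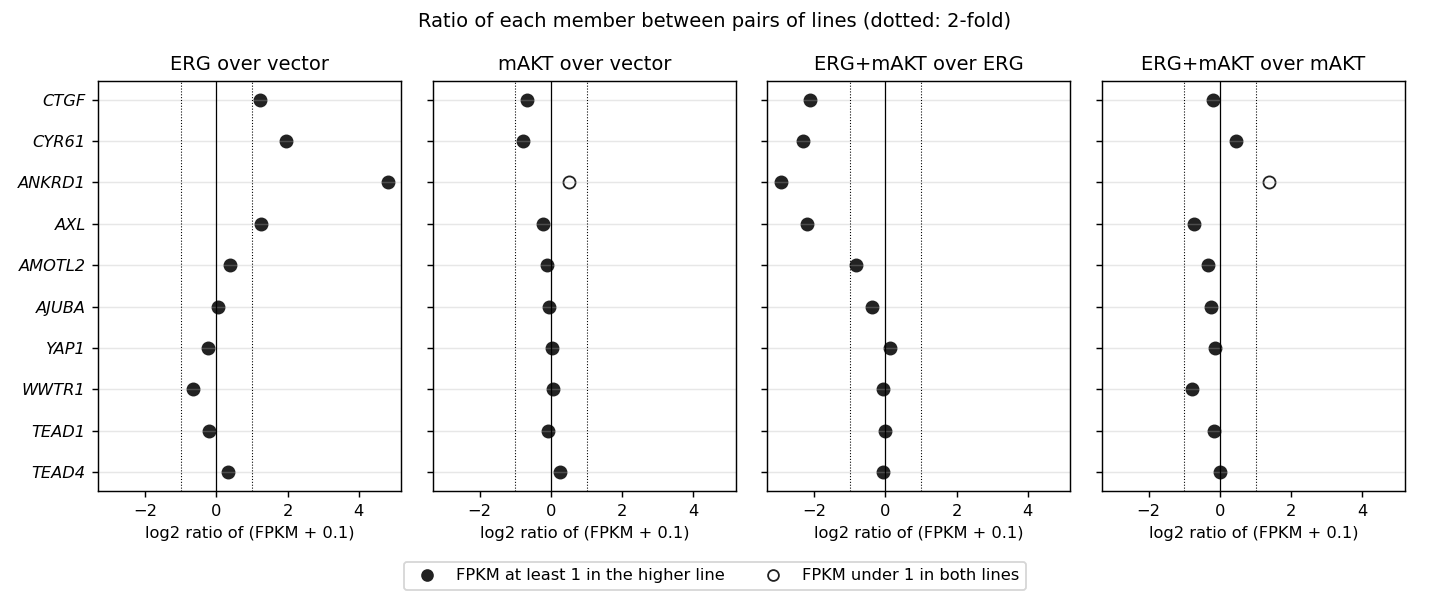
Log2 ratio of (FPKM + 0.1) of each member (rows) in the 4 comparisons that add 1 gene (panels), with dotted lines at 2-fold and an open point where both lines were under 1 FPKM. CTGF, CYR61, ANKRD1 and AXL lay beyond 2-fold to the right for ERG over vector, at 1.23, 1.96, 4.80 and 1.25, and to the left for ERG+mAKT over ERG, at -2.10, -2.31, -2.93 and -2.21.

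The scale of the lines bears on some of these calls. The FPKM of all genes summed to 846055 in vector, 1246083 in ERG, 971504 in mAKT and 959570 in ERG+mAKT cells, and the 10 highest genes held 19.6 to 26.1% of the sum. As deposited, the median gene had a log2 ratio of -0.01 for ERG over vector. Dividing each line by its sum moved that median by -0.56, and CTGF and AXL then had ratios of 0.674 and 0.695, under 2-fold, while CYR61 (1.41) and ANKRD1 (4.47) stayed above it. WWTR1 was then 2-fold lower, with a ratio of -1.22 beside a median of -0.57 for all genes. AMOTL2 (-0.17), AJUBA (-0.50) and TEAD4 (-0.23) changed sign. The 4 targets stayed at least 2-fold lower for ERG+mAKT over ERG, between -1.73 and -2.58, and AJUBA (0.01), WWTR1 (0.31), TEAD1 (0.36) and TEAD4 (0.32) changed sign. For ERG+mAKT over vector, CTGF (-1.055) and AXL (-1.137) became 2-fold lower. The share of all genes past 2-fold on this scale was not counted.

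The ratio of lines with ERG over lines without it was compared between cells without mAKT and with it. The log2 ratio with mAKT minus that without was -1.42 for CTGF, -1.51 for CYR61, -3.42 for ANKRD1 and -1.97 for AXL. It was -0.73 for AMOTL2, and between -0.32 and 0.11 for AJUBA, YAP1, WWTR1, TEAD1 and TEAD4. A difference of at least 2-fold in that direction was seen in 4 members and in 3.82% of 12669 genes. The members were chosen with these levels known, and the difference subtracts the ratio of ERG over vector, so nothing is read from the excess. With each line divided by its sum, 2 members, ANKRD1 and AXL, kept such a difference (-3.06 and -1.40). Those of CTGF and CYR61 were -0.85 and -0.94, and the share of all genes on that scale was not counted. This difference was not tested, since pooled values allow no interaction test. AKT1 RNA also differed between the lines with mAKT, at 156 FPKM in mAKT and 281 in ERG+mAKT cells.

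Other genes of the pathway were described from 3 lists drawn from general knowledge: 13 genes of the Hippo kinase core, 12 TEADs and regulators of YAP, and 15 other YAP/TAZ targets. In the kinase core, 13 passed the FPKM minimum for ERG over vector, 0 were 2-fold higher and 1 was lower. That gene was NF2 (merlin), an upstream activator of LATS, at 6.04 FPKM in vector, 2.58 in ERG, 7.17 in mAKT and 3.88 in ERG+mAKT cells, with a log2 ratio of -1.19. The median of the list was -0.06, and for ERG+mAKT over ERG it was -0.04 with 0 genes past 2-fold. LATS1, LATS2, STK3 and STK4 had ratios between -0.41 and 0.09 for ERG over vector.

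Among the TEADs and YAP regulators, 10 passed the minimum for ERG over vector and 2 were 2-fold higher. WTIP, a LIM protein related to AJUBA, was at 3.56 FPKM in vector, 10.2 in ERG, 2.52 in mAKT and 3.91 in ERG+mAKT cells. It was 2.82-fold higher for ERG over vector and had a log2 ratio of -1.36 for ERG+mAKT over ERG, the directions of the 4 targets. VGLL1, a TEAD cofactor that competes with YAP for the same surface, had another pattern, at 0.406 FPKM in vector, 1.19 in ERG, 1.39 in mAKT and 3.98 in ERG+mAKT cells. It was past 2-fold upwards in each comparison that adds 1 gene, with log2 ratios of 1.35 for ERG over vector, 1.55 for mAKT over vector, 1.66 for ERG+mAKT over ERG and 1.46 for ERG+mAKT over mAKT. It is near 1 FPKM, and with a pseudocount of 1 the first and second fell under 2-fold, at 0.64 and 0.76, as did the first with each line divided by its sum, at 0.87. TEAD2 and TEAD3 had ratios of 0.01 and 0.07 for ERG over vector.

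Of the other YAP/TAZ targets, 13 passed the minimum for ERG over vector, 11 were above 0, 2 below it, and 2 were at least 2-fold higher. Of all genes 48.5% were above 0 and 4.99% at least 2-fold higher. The median was 0.37, beside -0.01 for all genes. F3, the coagulation receptor tissue factor, was at 242 FPKM in vector, 567 in ERG, 246 in mAKT and 196 in ERG+mAKT cells. IGFBP3, an insulin-like growth factor binding protein, was at 4.44, 41.1, 3.31 and 13.7 FPKM. Their log2 ratios of ERG over vector were 1.23 and 3.18. For ERG+mAKT over ERG, 0 of 13 were above 0 and 13 below it, with a median of -0.54 beside -0.05, and F3 (-1.53) and IGFBP3 (-1.58) were past 2-fold. Of all genes 43.2% were above 0 and 3.62% at least 2-fold lower. The lists were chosen with earlier results of these data known, so nothing is read from the excess in either comparison. IGFBP3 was the only gene of this list past 2-fold for ERG+mAKT over mAKT, with a ratio of 2.02, and 0 were for mAKT over vector. With each line divided by its sum, 4 of the 13 other targets were above 0 for ERG over vector (median -0.17 beside -0.57 for all genes) and 5 of 13 for ERG+mAKT over ERG (median -0.16 beside 0.32). On that scale 1 gene of the 3 lists stayed 2-fold higher for ERG over vector, and 2 were then lower. The share of all genes past 2-fold was not counted on that scale, so nothing is read from these counts.

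**Figure D3:**
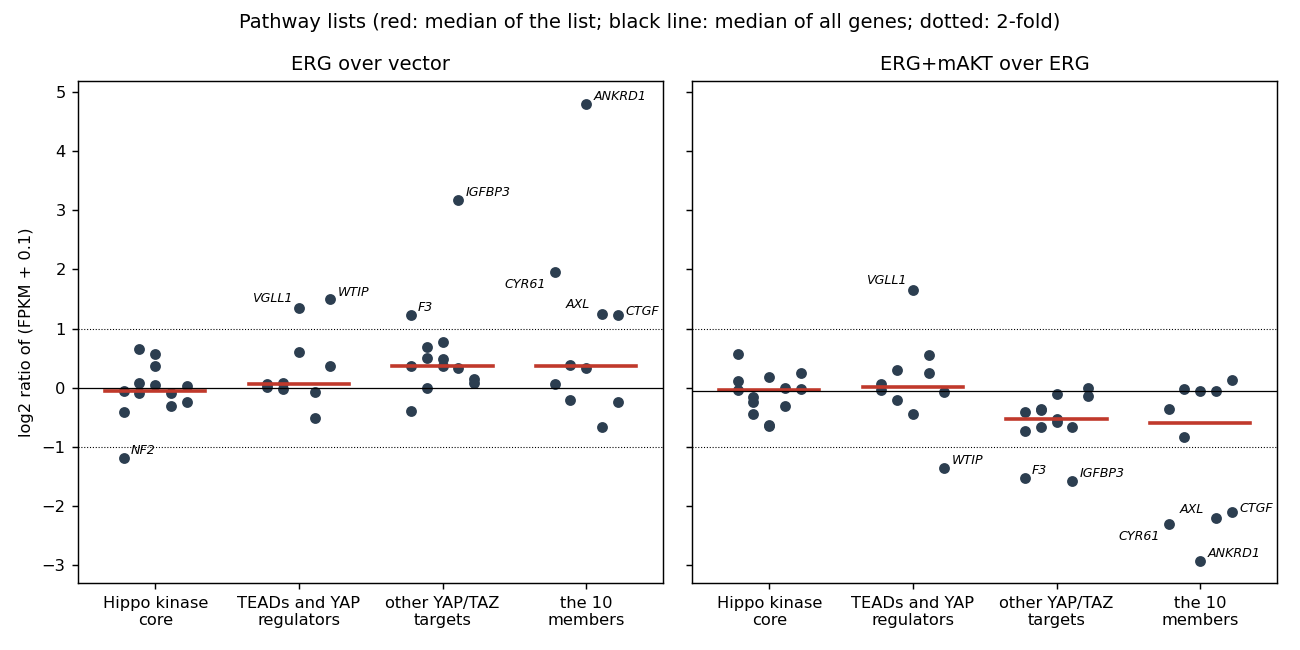
Log2 ratio of (FPKM + 0.1) of each gene of the 3 lists and of the 10 members whose larger FPKM reached 1, for ERG over vector (left) and ERG+mAKT over ERG (right), which share the ERG line; red bars are list medians, the black line the median of all genes, and genes past the dotted 2-fold lines are named. The other YAP/TAZ targets had medians of 0.37 and -0.54, the kinase core -0.06 and -0.04.

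Among the genes whose pattern over the 4 lines lay near that of CTGF, by Euclidean distance between centred log2 profiles, were FSD1 (distance 0.212) and SNORA38B (0.267), out of 902 genes at 1 FPKM or above in every line and with a range of at least 2-fold. FSD1 was at 6.08 FPKM in vector, 13.1 in ERG, 4.18 in mAKT and 3.46 in ERG+mAKT cells. SNORA38B is a small nucleolar RNA, a class that polyA selection does not capture well. For CYR61 the nearest were ARHGEF26 (0.368), SFTA1P (0.376) and COL8A1 (0.384), with COL8A1, a collagen chain, at 7.33, 23.9, 4.72 and 4.70 FPKM. Each profile has 4 points.

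Markers of cell state differed between the same lines. Of the basal markers, KRT5 was at 3126 FPKM in vector, 1169.8 in ERG, 3642 in mAKT and 3519 in ERG+mAKT cells, KRT14 at 2936, 699.5, 2527 and 1185 FPKM, and TP63 at 36.3, 21.3, 39.2 and 38.0 FPKM, so 3 of 3 were lowest in the ERG line, where the 4 targets were highest. Of the epithelial markers, KRT8, KRT18 and EPCAM were highest in the ERG line, at 1769, 1843 and 89.7 FPKM. CDH1 was not, at 41.2 FPKM in ERG, 43.0 in mAKT and 44.9 in ERG+mAKT cells. The part of these markers in the levels of the members was not tested.

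Peaks near the members come from 1 library per list, so there is no replicate check. In each list MACS2 scored peaks by fold enrichment and by −log10 of a p-value against that list's own background, and enrichments are not compared between lists. A peak was counted when it overlapped a gene's span extended by 20 kb. ERG ChIP in ERG+mAKT cells (9113 peaks, 10306483 reads) had 9 peaks near 3 of the 10 members, ANKRD1, AMOTL2 and YAP1, where 32.5% of 12669 genes had one, so the share was near that of all genes. CTGF, CYR61 and AXL had 0. The samples hold no ERG ChIP of RWPE1-ERG cells, the line where the RNA of CTGF, CYR61 and AXL was highest. Whether ERG binds near them in that line cannot be told. None of the 9 peaks had a q-value of at most 0.01, which 4.94% of all peaks in that list had. They had 4 to 7 fragments piled up at the summit and fold enrichments of 3.10 to 4.70, where the median of the list was 3.53. In VCaP cells the ERG list had 1 peak near the members, in an intron of TEAD1 (chr11:12876676-12876862, fold enrichment 3.59), where 24.7% of genes had one.

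The ERG peaks at ANKRD1 are shown because it was the only one of the 4 targets with any. The upstream peak (chr10:92690926-92691103) had its summit 9.99 kb before the gene start, a fold enrichment of 4.70 and a q-value of 0.0461. The other (chr10:92681088-92681196) had its summit 81 bases before the start given in the table, a fold enrichment of 4.11 and a q-value of 0.206. Both are annotated as intergenic. RefSeq places the start 188 bases further into the gene, and on that count the 2 GGAATG of the promoter shown above ended 23 and 115 bases from the edge of the nearer peak. The 101 bases around summits follow on the plus strand of hg19, at chr10:92690968-92691068, chr10:92681063-92681163 and, for the AMOTL2 peak of lowest p-value, chr3:134083863-134083963, with GGAA on either strand in capitals.
ANKRD1 upstream ERG peak: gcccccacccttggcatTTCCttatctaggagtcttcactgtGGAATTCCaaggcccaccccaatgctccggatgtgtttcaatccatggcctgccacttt
ANKRD1 ERG peak at the start: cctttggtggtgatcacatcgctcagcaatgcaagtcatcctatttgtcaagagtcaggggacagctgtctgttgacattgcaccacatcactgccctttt
AMOTL2 intronic ERG peak: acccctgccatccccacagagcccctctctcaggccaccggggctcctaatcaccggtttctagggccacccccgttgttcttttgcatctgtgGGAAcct
The upstream ANKRD1 window held 3 matches of GGAA, the window at the start 0 and the AMOTL2 window 1. GGAA was present in 67.1% of the windows of that length around all ERG summits. Within 100 bases of the summit, the longer ETS sequence GGAAGT was found at 2 of the 9 peaks, both at AMOTL2, and in 14.9% of all 9113 windows. GGAATG was found at 2 of the 9, 1 each at ANKRD1 and YAP1, and in 14.1% of all.

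AMOTL2 had 4 ERG peaks. The one of lowest p-value lay in an intron 10.3 kb into the gene (chr3:134083848-134083981, fold enrichment 4.24), a second of the same p-value lay in an intron 0.351 kb after the start, and that one overlapped open chromatin in each of the 3 lines with an ATAC list. YAP1 had 3, all intronic, of which the one of lowest p-value lay 32.1 kb into the gene (chr11:102013168-102013351, fold enrichment 4.11).

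ERK2 ChIP was compared between vector and ERG cells. ERK2, a kinase of the Ras/ERK pathway, had 40 peaks near 8 members in vector cells (41276 peaks, 8393459 reads), where 76.6% of genes had one. In ERG cells (5721 peaks, 15020233 reads) it had 14 peaks near 7 members, where 33.4% of genes had one. The median span was 31.3 kb for the members and 32.8 kb for all genes, but some members are long. TEAD1, WWTR1 and YAP1 span 270316, 186039 and 122963 bases. They had 10, 7 and 9 of the 40 peaks in vector cells and 1 each of the 14 in ERG cells. Counted within 20 kb of the gene start, 6 members had an ERK2 peak in vector cells (59.1% of 11442 genes) and 3, AJUBA, AMOTL2 and CYR61, in ERG cells (23.1%). By the same measure 3 had an ERG peak in ERG+mAKT cells (17.4%) and 0 in VCaP cells (14.8%). The inputs also differed in depth, with 15658943 reads for vector and 9675359 for ERG cells, and whether the lists differ beyond replicate error was not tested.

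CYR61 had 2 ERK2 peaks in ERG cells, both over annotated exons of the gene and overlapping open chromatin of the 3 lines. One (chr1:86046683-86046908) had its summit 0.374 kb after the start and a fold enrichment of 4.47. The other (chr1:86050060-86050246) lay 3.77 kb after the start, past the end of the gene span given above, with 4.28. Their q-values were 0.244 and 0.353. In vector cells, the 2 ERK2 peaks near CYR61 lay downstream of the gene, at 8.74 and 13.5 kb from the start, with fold enrichments of 3.08 and 3.69. CTGF had 1 ERK2 peak in vector cells, 5.89 kb upstream (chr6:132278318-132278534, fold enrichment 3.37), and 0 in ERG cells. ANKRD1 and TEAD4 had 0 in both.

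AJUBA had the most ERK2 peaks of the members in ERG cells, 5, and 6 in vector cells. The one of lowest p-value in ERG cells lay over an exon 1.32 kb into the gene (chr14:23450355-23450700, fold enrichment 5.25, q-value 0.0302). AXL had 2 in ERG cells, at the neighbouring gene HNRNPUL1, 43.1 and 43.5 kb from its own start, and 1 in vector cells in an intron of HNRNPUL1. TEAD1 and WWTR1 had 1 each in ERG cells, 50.5 and 45.8 kb into the gene, beside 10 and 7 in vector cells. The only ChIP peak of any list near a member with a q-value of at most 0.01 was an ERK2 peak in ERG cells (fold enrichment 5.36, q-value 0.00211) downstream of YAP1, 137 kb from its start.

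Open chromatin was listed by ATAC-seq for ERG, mAKT and ERG+mAKT cells (63354, 57999 and 42081 peaks). No ATAC list of vector cells was used here. Each of the 10 members had a peak within 20 kb in each of the 3 lists, as did 98.4%, 98.3% and 97.8% of genes. By gene start, 9 members did in each, all but WWTR1 (97.1%, 96.9% and 95% of genes). Merging overlapping peaks gave 76 sites near the members, of which 39 were listed in all 3 lines, 10 in ERG cells only, 9 in mAKT cells only and 1 in ERG+mAKT cells only. These are 51.3%, 13.2%, 11.8% and 1.32% of the sites, beside 53.4%, 15.5%, 10.9% and 2.47% of the 41914 sites near all genes, so the shares were close to those of all genes. Shorter lists miss more sites, so absence from a list is not absence of open chromatin.

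At CTGF, 2 of 2 sites were listed in all 3 lines, one over the gene and its start and the other 3.39 kb upstream, with fold enrichments of 4.24 in ERG, 3.76 in mAKT and 3.62 in ERG+mAKT cells. At CYR61, 3 of 5 sites were, among them that over the start. At ANKRD1, the site over the start given in the table (chr10:92680924-92681395) was listed in mAKT cells (fold enrichment 7.74) and ERG+mAKT cells (7.16). It was not listed in ERG cells, the line with the most ANKRD1 RNA. That site held the nearer ERG peak, and the RefSeq start, at position 92680844, lay outside it. A second ANKRD1 site, 9.21 kb upstream (chr10:92689956-92690522), was listed in all 3, with fold enrichments of 13 in ERG, 4.94 in mAKT and 4.21 in ERG+mAKT cells, and did not overlap the upstream ERG peak. At AXL, 3 of 5 sites, the start included, were listed in all 3 lines. The other 2, at 14.8 kb upstream in an intron of CYP2S1 and at 5.42 kb upstream, were listed in ERG cells only, with fold enrichments of 6.5 and 4.78. Sites in ERG cells only also numbered 3 at TEAD1, 2 each at YAP1 and WWTR1 and 1 at AJUBA. CTGF, CYR61, ANKRD1, AMOTL2 and TEAD4 had 0. None of these differences between lists has a replicate.

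**Figure D4:**
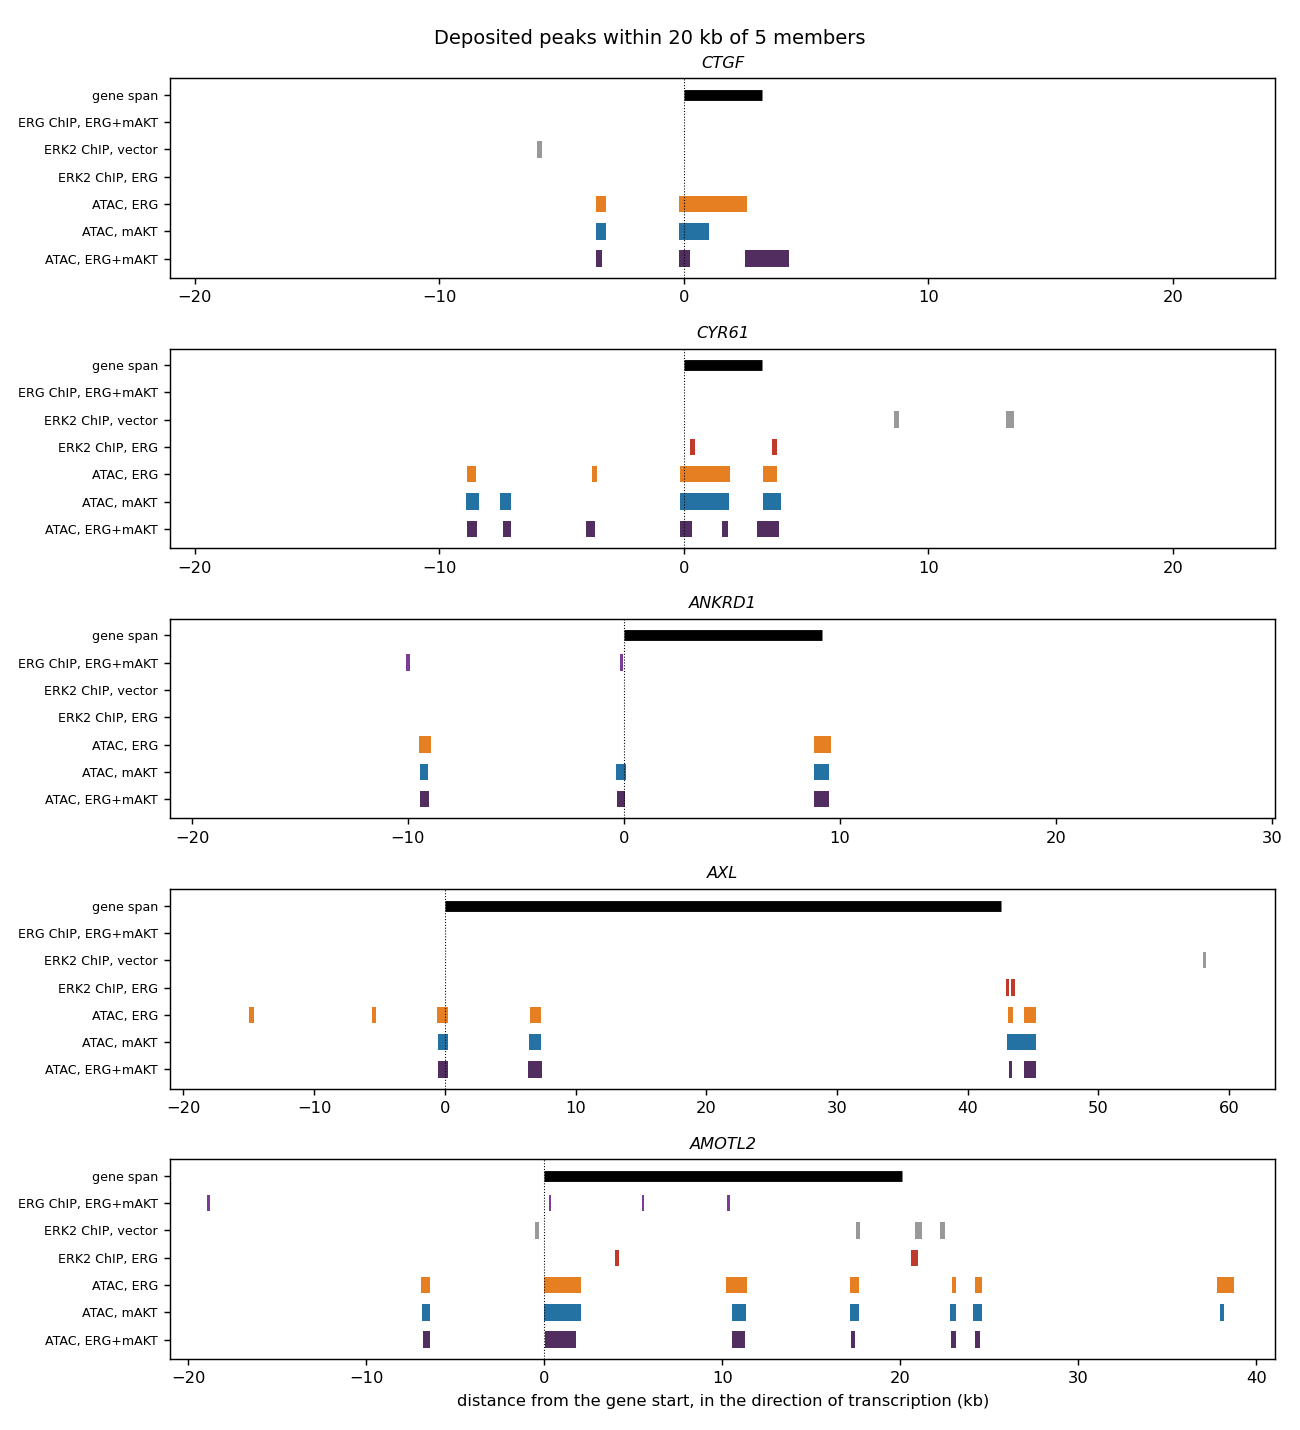
Deposited peaks within 20 kb of CTGF, CYR61, ANKRD1, AXL and AMOTL2, by distance from the gene start in the direction of transcription (kb); black bars are gene spans and each row is 1 list from 1 library. ERG peaks appear at ANKRD1 (2) and AMOTL2 (4), and ERK2 peaks of ERG cells at CYR61 (2, of which 1 lies past the end of the gene span). The ANKRD1 start given in the table has an ATAC peak in mAKT and ERG+mAKT cells but none in ERG cells.

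At the coactivators and TEADs, the start of YAP1 was within a site listed in all 3 lines (fold enrichments of 8.03 in ERG, 6.33 in mAKT and 6.62 in ERG+mAKT cells), and so were those of TEAD1 (11, 8.64 and 8.14) and TEAD4 (4.93, 4.11 and 3.88). The start of WWTR1 in the table had no site in any of the 3 lists. The nearest lay 24.8 kb into the gene, in ERG cells only, and the next, over an annotated exon 45.1 kb into the gene, was listed in all 3. That site (chr3:149375283-149376652) held the other RefSeq start of WWTR1, at position 149375812. Its fold enrichments were 7.8 in ERG, 6.28 in mAKT and 6.49 in ERG+mAKT cells. TEAD1 had 23 sites over its long span, 9 of them in all 3 lines.

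For H3K27me3, the mark of Polycomb repression, the lists held 105 regions near 10 members in vector cells, 12 near 5 in ERG cells and 14 near 5 in ERG S96E cells, where 95.2%, 61.1% and 67.7% of genes had one. The whole lists held 492265, 228233 and 252784 regions, from 19444504, 16513053 and 26454542 reads. Whether they differ beyond replicate error was not tested. By gene start, 10, 4 and 3 members had one, and 90.8%, 43.4% and 50% of genes. None had a q-value of at most 0.01, which 0.00589%, 0.0171% and 1.35% of all regions in the 3 lists had. The highest fold enrichment near a member was 2.68, downstream of TEAD4 in ERG S96E cells, and the medians of the lists were 1.84, 1.94 and 2.01. ANKRD1, the member with the least RNA in vector cells, had 5 regions there with a fold enrichment of at most 1.90.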

How the data were processed

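The authors aligned RNA-seq reads of 12 libraries with TopHat2 and ran Cuffdiff, and the deposited table gives 1 pooled FPKM per gene and line for 6 pairs of 4 lines. It also holds the authors' own fold changes, test scores, p-values and q-values, which were not used. It has 0 columns of single samples, so RNA-seq depth is unknown and no test was run. ChIP and ATAC reads were aligned to hg19, ChIP DNA being pooled from 3 experiments, and the lists deposited by the authors give MACS2 (2.1.2 or 2.2.7.1 where a header names it) pileup signal, fold enrichment ratio, −log10 p-value and −log10 q-value. 10 lists were used. 2 lists whose header or peak names did not match the sample they were attached to were not used, 1 of them with peak names of an RWPE1 ATAC library. The peak names of the 3 ATAC lists used name the line of their sample. The VCaP list has no header and its peak names give no cells or treatment, so its label rests on the sample it was attached to.

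Ratios were log2(FPKM + 0.1), and 2 gene loci with 2 values in a line were left out. Fold changes of low genes are understated on this scale. Positions are 1-based hg19, with strand and features from GENCODE release 44 lifted to GRCh37. For gene starts, 11442 genes had 1 annotated strand. Motifs were searched on both strands in RefSeq promoters (GRCh38.p14) and within 100 bp of summits. Pooled values leave no estimate of error, and ChIP depth is 8393459 to 26454542 reads per library where a header gives it. The members, lists and tests were chosen with earlier results of these data known. Beside the 10 members, the genes named are those of the 3 lists past 2-fold in a comparison adding 1 gene, a few list members for context chosen after their values were seen, and the 3 genes nearest to CTGF and to CYR61, of which 1 is not reported here. Peaks were named for only some members and lists, in part those of lowest p-value. Which of them to name, and the other peaks at the 4 targets and AMOTL2, was chosen after their values were seen. Alternatives changed the pseudocount, scaling, fold, FPKM minimum, distance, q-value and motif. The code was tested on simulated data. Software was Python, pandas, NumPy and matplotlib.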

Additional observations from a re-analysis of the deposited data

Results flagged for a closer look

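For CTGF and AXL the ratio of lines with ERG over lines without it had opposite signs in the absence and presence of mAKT. CTGF had a log2 ratio of 1.23 for ERG over vector and -0.19 for ERG+mAKT over mAKT, and AXL had 1.25 and -0.72. These are pooled values, 1 per line, and the difference was not tested. The lines with mAKT also differed in AKT1 RNA, at 156 FPKM in mAKT and 281 in ERG+mAKT cells.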

How the results depend on the processing

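No paired analysis was possible because the table holds 1 pooled FPKM per line, which also prevents leaving out libraries. Of 505 alternative values, 455 stayed within 1.5 times of the reported one and 0 changed the sign of a called ratio. Of 340 single-gene values 13 moved more, 10 of ANKRD1 and 3 of VGLL1, both of low level, under another pseudocount. Equal FPKM totals shifted the median gene by -0.555 for ERG over vector, which is less than 1.5-fold. The limit was therefore too wide to register that scaling for single genes. CTGF (0.674) and AXL (0.695) fell under 2-fold with it and still count as unmoved. A limit of 1.5-fold gave 1 member lower for ERG over vector, 2 lower for mAKT over vector, 2 lower for ERG+mAKT over mAKT and 3 lower for ERG+mAKT over vector. It gave 8 list genes higher for ERG over vector, 8 lower for ERG+mAKT over ERG, 1 lower for ERG+mAKT over mAKT and 3 lower for ERG+mAKT over vector. With no FPKM minimum, 1 member, ANKRD1, was higher for ERG+mAKT over mAKT and 1 for ERG+mAKT over vector, and 5, 1 and 2 list genes were lower for ERG+mAKT over ERG, mAKT and vector. With a pseudocount of 1, 0 list genes were lower for ERG over vector and 0 higher for mAKT over vector. Equal FPKM totals were chosen after seeing the data. With them, 2 members and 1 list gene were higher for ERG over vector, and 1 member and 2 list genes lower. On that scale 2 members were lower for ERG+mAKT over vector, and 2 had the difference of the ERG ratio with mAKT. The share of all genes past 2-fold was not counted with equal totals. At a q-value of at most 0.01, 0 members had a peak in the ERG lists of ERG+mAKT and VCaP cells, the ERK2 list of vector cells and the 3 H3K27me3 lists, and 1 in the ERK2 list of ERG cells. Within 5 kb, 5 had an ERK2 peak in vector cells and 0 and 1 an H3K27me3 region in ERG and ERG S96E cells. Within 50 kb, 2 had a VCaP ERG peak and 9 an ERG S96E H3K27me3 region. By gene start, 3 had an ERK2 peak in ERG cells, 0 a VCaP ERG peak and 3 an ERG S96E region. GGAATGT gave 3 members in place of 6. Peak depth limits the ChIP results, since most peaks near members rest on few reads.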
